A study of Mus musculus with 14 samples.

Results

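The leukocyte integrins described here are 10 genes for adhesion receptor subunits, chosen by name: the alpha subunit genes Itgax, Itgam, Itgal, Itga4, Itga6 and Itgav and the beta subunit genes Itgb1, Itgb2, Itgb3 and Itgb7. All 10 had a row among the 24980 genes of a dendritic cell table and among the 17118 genes of a monocyte and macrophage table. The tables come from bulk RNA sequencing of cells sorted from mouse bone marrow, 14 libraries in all. Dendritic cells came from mice treated with PAM3CSK4, a synthetic lipopeptide agonist of the Toll-like receptor 1 and 2 pair (4 libraries), or with vehicle (4 libraries). Macrophages (3 libraries) and monocytes (3 libraries) were collected at baseline.

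Per the labels' extraction protocol, every group came from Cx3Cr1gfp/+ mice, in which a GFP reporter replaces 1 copy of the chemokine receptor gene Cx3cr1, while the series' design text calls the mice wild type. Dendritic cells were gated as GFP-high, MHC class II-high and CD11c-high, macrophages as GFP-negative, MHC class II-high and CD169-positive, both without Gr-1 and B220, and monocytes as GFP-high and CD115-positive without B220. CD11c is the product of Itgax, so dendritic cells were chosen by the protein of 1 member, and no other member was used for sorting. The labels give no dose, no time after dosing, and neither age nor sex. Whether each library came from its own mouse is not stated either, and the p-values therefore reflect library-to-library spread, part of which may be technical.

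Integrins are heterodimers of 1 alpha and 1 beta subunit that bind ligands on other cells or in the extracellular matrix and connect them to the actin cytoskeleton. On leukocytes the CD18 subunit (Itgb2) pairs with CD11a (Itgal) to form LFA-1, with CD11b (Itgam) to form Mac-1, also called complement receptor 3, and with CD11c (Itgax) to form complement receptor 4. The CD49d subunit (Itga4) pairs with CD29 (Itgb1) to bind VCAM-1 and fibronectin, or with the subunit encoded by Itgb7 to bind the mucosal addressin MAdCAM-1. Such receptors hold blood cells in the marrow and guide their entry into tissue.

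The promoters of Itgam and Itgax are shown because the genes are neighbours on chromosome 7, with 11.1 kb between them in mm10, and had unlike values after PAM3CSK4, and that of Itgb7 because Itgb7 fell. Each sequence is the 250 bases before the gene's start, 5′ to 3′ on the gene's strand, from RefSeq (GRCm38.p6). The windows are chr7:128062390-128062639 on the plus strand for Itgam, chr7:128129300-128129549 on the plus strand for Itgax and chr15:102231936-102232185 on the minus strand for Itgb7. Capitals mark GAGGAA, letters bound by the myeloid transcription factor PU.1, and the same letters on the other strand, TTCCTC.
Itgam promoter: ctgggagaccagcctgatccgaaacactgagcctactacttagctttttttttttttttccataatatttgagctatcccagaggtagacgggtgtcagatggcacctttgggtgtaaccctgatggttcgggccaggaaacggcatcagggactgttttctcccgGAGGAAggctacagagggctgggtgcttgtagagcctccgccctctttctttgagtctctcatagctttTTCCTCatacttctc
Itgax promoter: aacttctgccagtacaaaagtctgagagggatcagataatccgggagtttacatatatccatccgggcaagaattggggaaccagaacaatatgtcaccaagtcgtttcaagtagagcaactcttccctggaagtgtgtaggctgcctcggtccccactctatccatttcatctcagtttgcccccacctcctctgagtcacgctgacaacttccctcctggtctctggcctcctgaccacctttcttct
Itgb7 promoter: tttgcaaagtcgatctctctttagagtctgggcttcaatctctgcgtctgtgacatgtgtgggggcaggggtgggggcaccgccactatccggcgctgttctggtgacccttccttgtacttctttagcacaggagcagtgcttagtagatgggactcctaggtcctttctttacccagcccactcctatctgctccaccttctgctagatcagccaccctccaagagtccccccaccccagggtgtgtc
The Itgam window holds 2 matches, at bases -84 to -79 and -15 to -10 before the start, and the Itgax and Itgb7 windows hold 0. Only these exact letters were searched, and binding of PU.1 and its part in the integrin values were not tested. Of 32851 promoter windows of this length, 23.3% hold at least 1 match on either strand. Of the 10 members, 6 have a promoter entry, and Itgav and Itgb1 hold 2 matches and 1 match while Itga4 holds 0.

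Values are CPM, read counts scaled to library size and not divided by gene length. If the smallest step between values is 1 read, 1 CPM stood for 28.3 to 71.6 reads in the dendritic cell table and for 33.5 to 75.1 reads in the macrophage and monocyte table. The lowest value of any member then rests on about 423 reads, so counting error is small beside the spread between libraries. PAM3CSK4 replicate 4 stood apart from the other 7 dendritic cell libraries, with correlations of log2 values of 0.826 to 0.894 with them, against 0.892 to 0.971 among those 7. The summed level of 16 neutrophil markers was 11919 CPM in that library, 660 to 1639 CPM in the other PAM3CSK4 libraries and 601 to 1061 CPM with vehicle. The summed level of 12 conventional dendritic cell markers was 800 CPM there, 4922 to 5987 CPM in the other PAM3CSK4 libraries and 10709 to 13627 CPM with vehicle. Of these 12 markers, 0 rose and 3 fell with PAM3CSK4. The list includes Itgax and MHC class II genes, so it shares CD11c and MHC class II with the dendritic cell gate. MHC class II was in the macrophage gate too. With PAM3CSK4, 3 of 8 tested erythroid markers rose (sums of 98.0 to 1159 CPM with PAM3CSK4 and 19.9 to 216 CPM with vehicle), 3 of 8 plasmacytoid dendritic cell markers rose (230 to 935 CPM with PAM3CSK4 and 270 to 588 CPM with vehicle) and 3 of 12 monocyte markers fell (1821 to 3826 CPM with PAM3CSK4 and 3091 to 4454 CPM with vehicle). Their part in the integrin values was not tested. Of 14 macrophage markers, 6 were higher and 1, Adgre1, was lower in macrophages than in monocytes. Higher too were 8 of 9 tested platelet markers, 10 of 10 B and plasma cell markers and 11 of 12 NK and T cell markers. So were 10 of 10 erythroid and 7 of 10 stem and progenitor markers. Conventional dendritic cell markers were higher for 3 of 12 and lower for 1. Of 14 tested neutrophil markers 9 were higher and 4 lower, and of 12 monocyte markers 10 were lower. B and plasma cell markers summed to 2241, 511 and 8194 CPM in macrophage replicates 1 to 3 and to 11.8 to 26.5 CPM in monocytes. The macrophage markers summed to 525, 387 and 606 CPM in the same macrophage replicates. In monocyte replicates 1 to 3 they summed to 532, 161 and 211 CPM, so the groups overlapped. In these bulk libraries fewer cells of a type and less RNA per cell cannot be told apart.

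After PAM3CSK4, dendritic cells held more Itgam and Itga6 and less Itgb7, while Itgax, Itgal, Itgb2, Itga4, Itgav, Itgb1 and Itgb3 did not pass the test. Differences were tested with limma on log2(CPM + 1) over all 11377 genes that reached 1 CPM in at least 4 libraries, two-sided, with Benjamini-Hochberg adjustment and a threshold of 0.05. All 10 members passed that filter. Of them 2 rose and 1 fell, where 5.12% of all genes tested were called, 2.82% higher and 2.29% lower. The groups did not overlap for 4 members, 2 of them higher and 2 lower with PAM3CSK4, where 14.8% of all genes tested did not overlap, 10.1% higher and 4.68% lower. Without PAM3CSK4 replicate 4, 2 members rose and 1 fell as well. The median log2 change was 0.01 over the 10 members and 0.20 over all genes tested. The changes below are those of the values as deposited, with that shift left in. With median centring, which removes it, Itgam (1.28), Itga6 (0.97) and Itgb7 (−1.72) passed and Itga4 (−1.11) did too. Of all calls, 55.2% were rises as deposited, 29.9% with median centring, 35.1% with quantile normalization and 41.5% when rescaled to a common total.

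**Figure D1:**
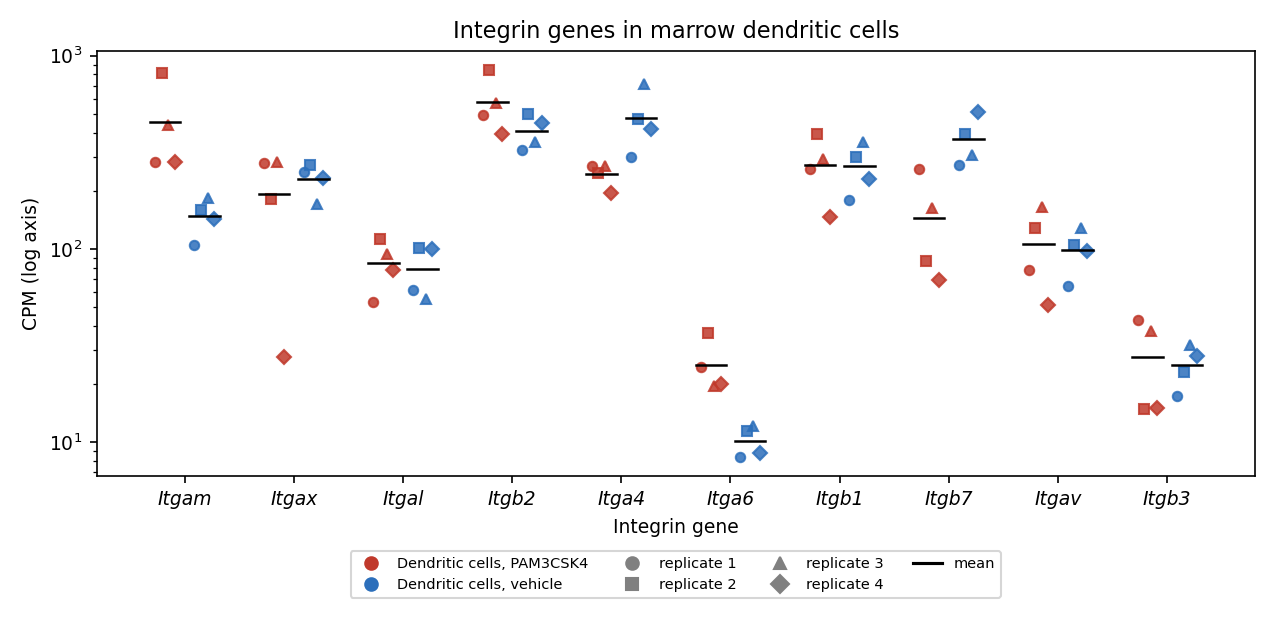
CPM of the 10 integrin genes (log axis) in dendritic cell libraries from PAM3CSK4-treated mice (left of each pair, red) and vehicle-treated mice (right, blue), 4 libraries each. Points are libraries, shapes are replicates and bars are means. For Itgam and Itga6 all PAM3CSK4 points lie above all vehicle points, for Itga4 and Itgb7 all lie below, and Itgax of PAM3CSK4 replicate 4 (27.5 CPM) lies far below the other 7.

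Among the CD18 integrins, Itgam (chromosome 7, 128062640 to 128118492 in mm10), the CD11b subunit of Mac-1 that binds ICAM-1, fibrinogen and the complement fragment iC3b, was the member that rose. It was at 282, 817, 436 and 282 CPM in PAM3CSK4 replicates 1 to 4 and at 105, 159, 183 and 143 CPM in vehicle replicates 1 to 4. Every PAM3CSK4 library was above every vehicle library, and replicate 2 was the highest. The log2 change of Itgam was 1.50 ± 0.34 (SE, limma adjusted p = 0.027). Without PAM3CSK4 replicate 4 the change was 1.68 (limma adjusted p = 0.0063). In PAM3CSK4 replicates 1 to 4 the neutrophil markers summed to 660, 1639, 1398 and 11919 CPM and the macrophage markers to 515, 2762, 1101 and 499 CPM, and with vehicle to 601 to 1061 CPM and 833 to 1432 CPM. Replicate 2, the highest for Itgam, was also the highest for macrophage markers. Replicates 1 and 4 were below every vehicle library for the macrophage markers. Of 13 tested macrophage markers 2 rose and 3 fell with PAM3CSK4. The part of neutrophils and macrophages in the level of Itgam was not tested. The call was lost without any 1 of vehicle replicates 1 to 4 (limma adjusted p = 0.092, 0.074, 0.059 and 0.071) or PAM3CSK4 replicate 3 (0.070), and with no filter on low values (0.10), with the log2 change between 1.34 and 1.61 in all of these.

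Itgax (chromosome 7, 128129550 to 128150658), which encodes CD11c, was at 277, 181, 283 and 27.5 CPM in PAM3CSK4 replicates 1 to 4 and at 249.3, 271, 170 and 234 CPM in vehicle replicates 1 to 4. The groups overlapped, and PAM3CSK4 replicate 4 was the lowest of the 8 libraries. The log2 change of Itgax was −0.69 ± 0.59 (SE, limma adjusted p = 0.49), and 0.09 (limma adjusted p = 0.87) without that library. Both groups had passed the CD11c-high gate, so the comparison is of Itgax RNA among cells already chosen for the protein.

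Itgb2 (chromosome 10, 77530370 to 77565709), the CD18 subunit shared by LFA-1, Mac-1 and complement receptor 4, was at 494, 843, 570 and 393 CPM with PAM3CSK4 and at 324, 500, 356 and 447 CPM with vehicle. The groups overlapped, and the log2 change was 0.46 ± 0.27 (SE, 95% interval −0.13 to 1.06, limma adjusted p = 0.31). Itgal (chromosome 7, 127296260 to 127335138), the CD11a subunit of LFA-1, was at 53.5, 113, 94.6 and 78.3 CPM with PAM3CSK4 and at 61.0, 101, 54.9 and 100 CPM with vehicle. Its log2 change was 0.10 ± 0.29 (SE, 95% interval −0.53 to 0.73, limma adjusted p = 0.86), with a sign that turned negative after each of the 3 rescalings.

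Among the partners of CD29 and of the beta7 subunit, Itga6 (chromosome 2, 71786939 to 71858428), the laminin-binding CD49f subunit, was at 24.4, 36.6, 19.5 and 19.97 CPM with PAM3CSK4 and at 8.44, 11.4, 12.2 and 8.80 CPM with vehicle. The lowest PAM3CSK4 library was above the highest vehicle library. The log2 change of Itga6 was 1.19 ± 0.25 (SE, limma adjusted p = 0.022), and 1.28 (limma adjusted p = 0.010) without PAM3CSK4 replicate 4. The call was lost without vehicle replicate 1, 2 or 4 (limma adjusted p = 0.064, 0.060 and 0.063) and with no filter on low values (0.065).

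Itgb7 (chromosome 15, 102215995 to 102231936, minus strand), whose product pairs with CD49d or with the alphaE subunit, was at 260, 86.8, 163 and 69.2 CPM in PAM3CSK4 replicates 1 to 4 and at 272, 391.7, 307 and 511 CPM in vehicle replicates 1 to 4. Every PAM3CSK4 library was below every vehicle library, although PAM3CSK4 replicate 1 was close to vehicle replicate 1. The log2 change of Itgb7 was −1.50 ± 0.38 (SE, limma adjusted p = 0.044), and −1.21 (limma adjusted p = 0.043) without PAM3CSK4 replicate 4. It passed with PAM3CSK4 replicate 1 or 4 left out and with none of the other 6 libraries left out, namely PAM3CSK4 replicates 2 and 3 (limma adjusted p = 0.094 and 0.069) and vehicle replicates 1 to 4 (0.086, 0.11, 0.089 and 0.11), and it missed the threshold with no filter on low values (0.13). The summed level of the conventional dendritic cell markers was lower with PAM3CSK4 in the same libraries, and its part in the value of Itgb7 was not tested.

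Itga4 (chromosome 2, 79255426 to 79333115), the CD49d subunit that binds VCAM-1 and fibronectin, was at 270, 246, 267 and 195 CPM with PAM3CSK4 and at 298, 470, 712 and 417 CPM with vehicle. The groups did not overlap, but the log2 change of −0.89 ± 0.27 (SE) did not pass (limma adjusted p = 0.079). It passed with median centring (−1.11, limma adjusted p = 0.023), quantile normalization (−1.04, limma adjusted p = 0.021) and when rescaled to a common total (−1.04, limma adjusted p = 0.022). Itgb1 (chromosome 8, 128685654 to 128733580), the CD29 subunit that pairs with both Itga4 and Itga6 products, was at 261, 395, 292 and 146 CPM with PAM3CSK4 and at 179, 301, 359 and 232 CPM with vehicle. Its groups overlapped, with a log2 change of −0.01 ± 0.32 (SE, 95% interval −0.70 to 0.69, limma adjusted p = 0.99).

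The vitronectin receptor subunits gave no call. Itgav (chromosome 2, 83724397 to 83806918), an alpha subunit that binds matrix proteins and latent TGF-beta, was at 78.1, 129, 165 and 51.1 CPM with PAM3CSK4 and at 64.4, 105, 128 and 97.5 CPM with vehicle, with a log2 change of 0.00 ± 0.35 (SE, 95% interval −0.76 to 0.76, limma adjusted p = 1.0). Itgb3 (chromosome 11, 104608000 to 104670472), a partner of the alphaV subunit and of the platelet subunit alphaIIb, was at 43.0, 14.95, 37.7 and 15.01 CPM with PAM3CSK4 and at 17.4, 23.2, 31.8 and 27.9 CPM with vehicle. PAM3CSK4 replicates 1 and 3 lay above all vehicle libraries and replicates 2 and 4 below them, and the log2 change of Itgb3 was 0.01 ± 0.36 (SE, 95% interval −0.77 to 0.79, limma adjusted p = 0.99), below 0 with each of the 3 rescalings.

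**Figure D2:**
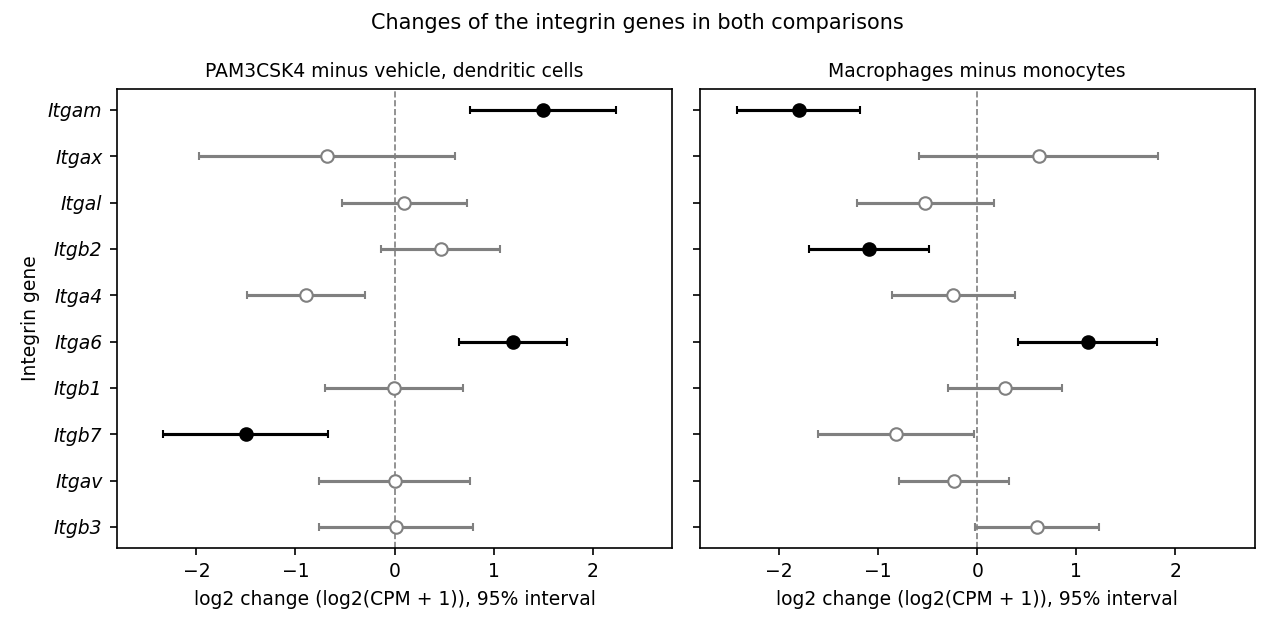
Log2 change of each integrin gene, on the log2(CPM + 1) scale, with its 95% interval from limma, for PAM3CSK4 minus vehicle in dendritic cells (left, 4 libraries each) and macrophages minus monocytes (right, 3 libraries each). Filled points passed an adjusted p of 0.05: Itgam (1.50), Itga6 (1.19) and Itgb7 (−1.50) on the left, and Itgam (−1.80), Itgb2 (−1.09) and Itga6 (1.11) on the right.

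Macrophages held less Itgam and Itgb2 and more Itga6 than monocytes. In this comparison 12188 genes that reached 1 CPM in at least 3 libraries were tested in the same way, and all 10 members passed the filter. Of them 1 was called higher and 2 lower in macrophages, where 20.2% of all genes tested were called, 12.8% higher and 7.42% lower, so the members' share of 30.0% is not far from the background. The groups did not overlap for the same 3 members, where 34.2% of all genes tested did not overlap, 20.4% higher and 13.8% lower. The median log2 change was −0.24 over the members and 0.10 over all genes. Of all calls, 63.4% were higher as deposited, 51.3% with median centring, 44.8% with quantile normalization and 73.3% when rescaled to a common total. None of the 10 members was part of the macrophage or monocyte gate. Markers of other cell types were higher in the macrophage libraries, as given above, and their part in the integrin values was not tested.

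**Figure D3:**
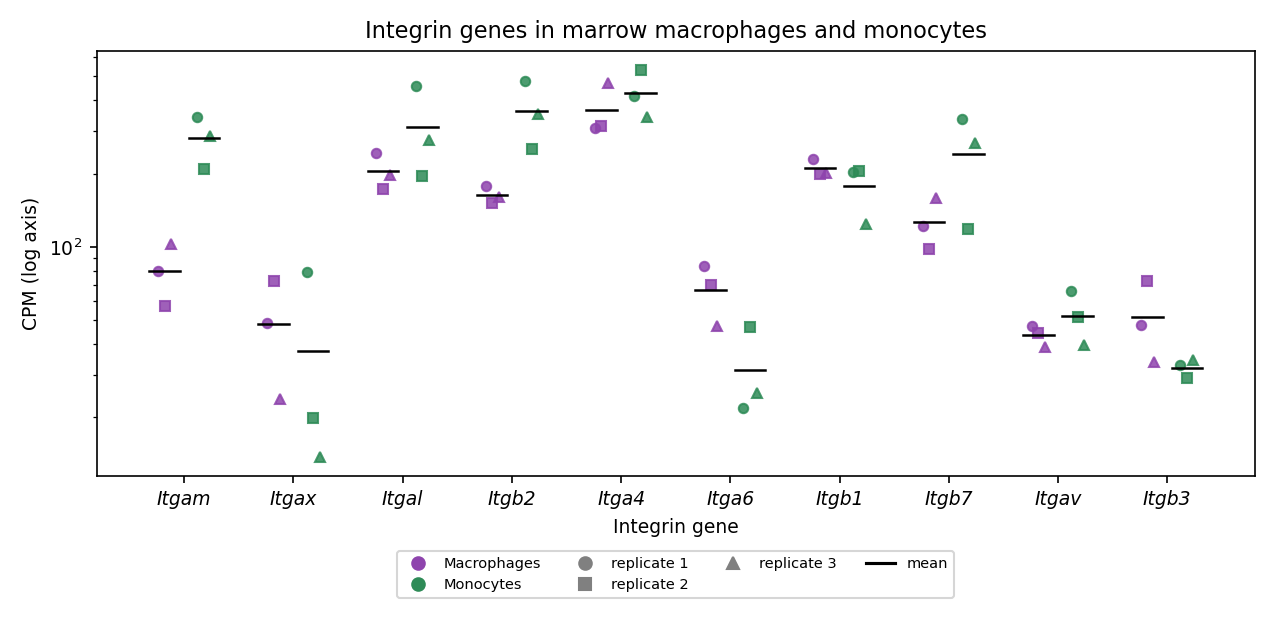
CPM of the 10 integrin genes (log axis) in macrophage libraries (left of each pair, purple) and monocyte libraries (right, green) at baseline, 3 libraries each. Points are libraries, shapes are replicates and bars are means. For Itgam and Itgb2 all macrophage points lie below all monocyte points, for Itga6 all lie above, and the other 7 genes overlap.

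Itgam was at 79.5, 57.4 and 103 CPM in macrophage replicates 1 to 3 and at 343, 209 and 286 CPM in monocyte replicates 1 to 3. The highest macrophage library was below the lowest monocyte library. The log2 change of Itgam was −1.80 ± 0.29 (SE, limma adjusted p = 0.00085), and it passed with each of the 6 libraries left out in turn (limma adjusted p = 0.00058 to 0.011) and under all 6 other alternatives.

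Itgb2 was at 178, 151 and 161 CPM in macrophages and at 481, 252 and 352 CPM in monocytes, again with no overlap. Its log2 change was −1.09 ± 0.28 (SE, limma adjusted p = 0.014), and the call was lost without macrophage replicate 2 (limma adjusted p = 0.058) or monocyte replicate 1 (0.062). Itgal, the third CD18 partner listed, was at 244, 173 and 197 CPM in macrophages and at 456, 196 and 276 CPM in monocytes, with overlap and a log2 change of −0.52 ± 0.32 (SE, limma adjusted p = 0.30). Itgax was at 48.7, 72.4 and 23.8 CPM in macrophages and at 78.9, 19.99 and 13.8 CPM in monocytes. For Itgax monocyte replicate 1 was the highest of the 6 libraries, and the log2 change was 0.62 ± 0.55 (SE, limma adjusted p = 0.51) with all libraries and 1.35 (limma adjusted p = 0.017) without monocyte replicate 1. The summed conventional dendritic cell markers, which include Itgax, were at 3544 CPM in that library and at 778 and 322 CPM in monocyte replicates 2 and 3. In macrophage replicates 1 to 3 these markers summed to 2928, 4328 and 2462 CPM. Their part in the level of Itgax was not tested in either population.

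Itga6 was at 83.3, 69.9 and 47.6 CPM in macrophages and at 21.9, 46.8 and 25.1 CPM in monocytes. The groups did not overlap, though macrophage replicate 3 and monocyte replicate 2 were nearly level. The log2 change of Itga6 was 1.11 ± 0.32 (SE, limma adjusted p = 0.028), and the call was lost without macrophage replicate 1 or 2 (limma adjusted p = 0.15 and 0.11) or monocyte replicate 1 or 3 (0.071 and 0.089), with no filter on low values (0.057) and after median centring (0.064). The stem and progenitor markers summed to 706 to 1686 CPM in macrophage libraries and 212 to 501 CPM in monocyte libraries, and the platelet markers to 101 to 303 CPM in macrophage libraries and 11.9 to 20.7 CPM in monocyte libraries. The part of such cells in the level of Itga6 was not tested.

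Itgb7 was at 122, 98.3 and 158 CPM in macrophages and at 334, 118 and 268 CPM in monocytes, with a log2 change of −0.82 ± 0.36 (SE, limma adjusted p = 0.14). Monocyte replicate 2 was the low one, and without it the log2 change of Itgb7 was −1.26 (limma adjusted p = 0.0073). Itgb3 was at 48.0, 72.3 and 33.9 CPM in macrophages and at 32.7, 28.9 and 34.4 CPM in monocytes (log2 change 0.60 ± 0.29, SE, limma adjusted p = 0.18). Itgav was at 47.4, 44.5 and 39.0 CPM in macrophages and at 65.9, 51.6 and 39.6 CPM in monocytes (log2 change −0.23 ± 0.25, SE, limma adjusted p = 0.61). Both pairs of groups overlapped.

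Itga4 and Itgb1, the subunits of the VCAM-1 receptor, overlapped between the populations and did not pass the test. Itga4 was at 307, 313 and 472 CPM in macrophages and at 416, 531 and 340 CPM in monocytes (log2 change −0.24 ± 0.28, SE, 95% interval −0.86 to 0.38, limma adjusted p = 0.63). Itgb1 was at 230, 199 and 201 CPM in macrophages and at 204, 205 and 124 CPM in monocytes (log2 change 0.28 ± 0.26, SE, 95% interval −0.30 to 0.86, limma adjusted p = 0.54). Levels of the same gene in the 2 tables are set side by side for Itga4 and Itgb1 only, the 2 members with a single RefSeq transcript. For genes with 1 RefSeq transcript, 79.1% to 87.3% of low values in dendritic cell libraries were whole multiples of the smallest step, and 84.1% to 87.2% in macrophage and monocyte libraries. For genes with several transcripts the shares were 52.2% to 57.7% in dendritic cells and 91.3% to 93.8% in macrophages and monocytes. Itga4 spanned 195 to 270 CPM in PAM3CSK4 and 298 to 712 CPM in vehicle dendritic cells. Its levels were 307 to 472 CPM in macrophages and 340 to 531 CPM in monocytes. Itgb1 spanned 146 to 395 CPM in PAM3CSK4 and 179 to 359 CPM in vehicle dendritic cells. Its levels were 199 to 230 CPM in macrophages and 124 to 205 CPM in monocytes. These levels were not tested across tables. For the same reason the absolute levels of the 8 members with several transcripts in dendritic cells may hold only part of their reads, and how this bears on their changes was not tested.

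Per kilobase of merged exon (GENCODE M21), which allows levels of different genes to be ordered, the order was set for macrophages and monocytes. In macrophages Itgb1 (55.1 ± 4.56 CPM per kb, SD, n = 3), Itgb2 (55.04 ± 4.60 CPM per kb) and Itgb7 (47.0 ± 11.2 CPM per kb) were the 3 highest and did not differ beyond their spread. Itga4 (37.3 ± 9.55 CPM per kb) and Itgal (32.1 ± 5.63 CPM per kb) were the highest alpha subunit genes there, and Itgav was the lowest member at 6.19 ± 0.599 CPM per kb. In monocytes Itgb2 led at 122 ± 38.7 CPM per kb, followed by Itgb7 at 89.5 ± 41.1 and Itgam at 56.7 ± 13.6 CPM per kb, each overlapping with the next. Itgam thus led the alpha subunit genes in monocytes by its mean, within the spread of Itgal (48.5 ± 20.9 CPM per kb), and stood below both Itga4 and Itgal in macrophages (16.2 ± 4.62 CPM per kb), where its libraries did not overlap with those of Itgal. The lowest 4 members in monocytes, Itgax, Itgav, Itga6 and Itgb3, were at means of 8.67, 7.42, 7.18 and 5.54 CPM per kb, and the libraries of Itgax did not overlap with those of Itga4, the next member up (43.9 ± 9.83 CPM per kb).

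Ratios of 2 subunit genes within a library do not depend on the library scaling. Itgam over Itgb2 was 0.569 to 0.969 with PAM3CSK4 and 0.319 to 0.513 with vehicle, without overlap, so Itgam was higher relative to its own partner in every PAM3CSK4 library. Itgax over Itgb2 was 0.0701 to 0.561 with PAM3CSK4 and 0.479 to 0.770 with vehicle, and Itgal over Itgb2 was 0.108 to 0.200 with PAM3CSK4 and 0.154 to 0.225 with vehicle, both with overlap. Itga4 over Itgb1 was 0.624 to 1.33 with PAM3CSK4 and 1.56 to 1.99 with vehicle, and Itga6 over Itgb1 was 0.0669 to 0.136 with PAM3CSK4 and 0.0339 to 0.0471 with vehicle. Thus the CD49d gene was lower and the CD49f gene higher relative to their common partner in every PAM3CSK4 library. Itga4 over Itgb7 overlapped, at 1.04 to 2.84 with PAM3CSK4 and 0.816 to 2.32 with vehicle. So did Itgax over Itgam, Itgav over Itgb1 and Itgav over Itgb3.

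Between the baseline populations, Itgam over Itgb2 was 0.379 to 0.640 in macrophages and 0.712 to 0.829 in monocytes, so Itgam was lower by more than its partner. Itgal over Itgb2 ran the other way, with 1.14 to 1.37 in macrophages and 0.778 to 0.949 in monocytes. Itga6 over Itgb1 was 0.236 to 0.361 in macrophages and 0.108 to 0.229 in monocytes, and Itgav over Itgb1 was 0.194 to 0.224 in macrophages and 0.252 to 0.324 in monocytes. None of these 4 ratios overlapped between the populations, where 34.2% of all genes tested did not overlap, and the share among other gene ratios was not computed. Itgax over Itgam narrowly missed overlap (0.2312 to 1.26 in macrophages and 0.0483 to 0.2303 in monocytes). Overlap was seen for Itgax over Itgb2 (0.148 to 0.478 in macrophages and 0.0393 to 0.164 in monocytes) and Itga4 over Itgb1 (1.33 to 2.34 in macrophages and 2.04 to 2.75 in monocytes). Itga4 over Itgb7 and Itgav over Itgb3 overlapped too. The ratios are given as a description, without a test.

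**Figure D4:**
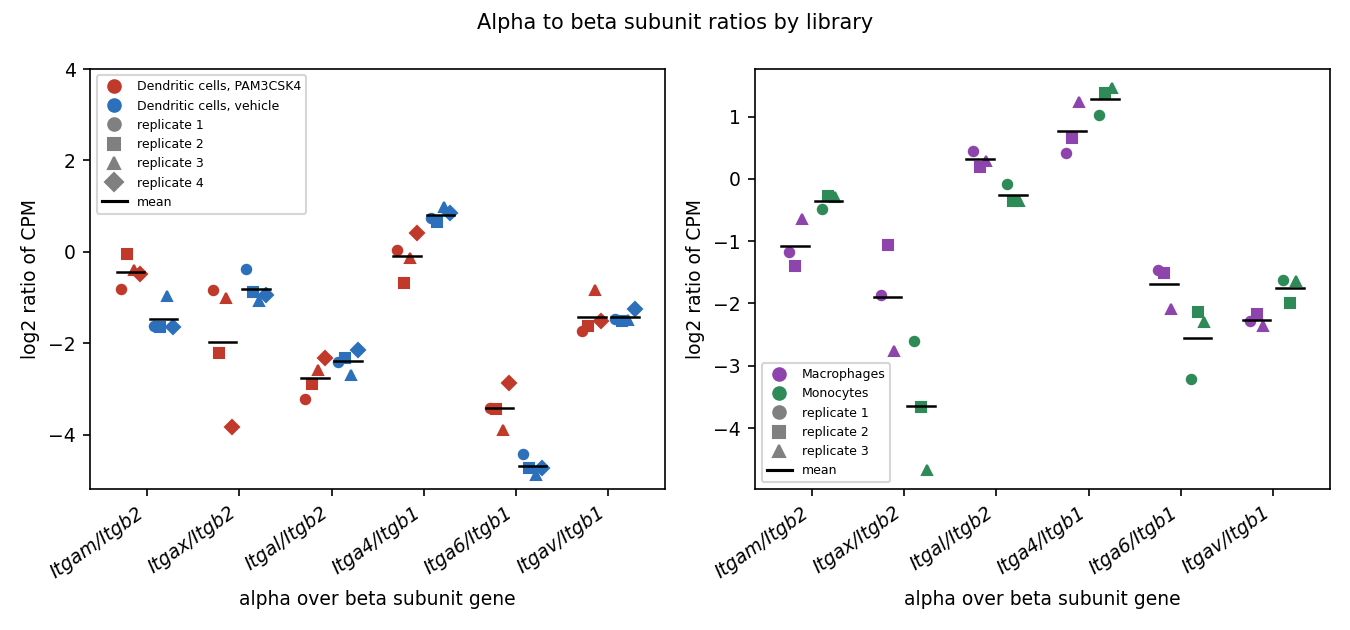
Log2 ratio of an alpha subunit gene to a beta subunit gene in each library, with PAM3CSK4 (red) left of vehicle (blue) dendritic cells in the left panel and macrophages (purple) left of monocytes (green) in the right panel. Points are libraries, shapes are replicates and bars are means, and the panels come from separate tables with their own axes. Itgam over Itgb2 lies higher in all PAM3CSK4 libraries than in all vehicle libraries and lower in all macrophage libraries than in all monocyte libraries.

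The genes most alike to 3 members were found by the mean absolute difference of log2(CPM + 1), centred on each gene's mean, over the libraries of a comparison. Over the 8 dendritic cell libraries and 9033 genes with a mean of at least 5 CPM, these were Acsl5, Slc7a7 and Ell2 for Itgam (differences of 0.13, 0.16 and 0.17), Ehf, Arhgap22 and Ccnd1 for Itgax (0.16, 0.22 and 0.25) and Bin2, S1pr2 and Hipk3 for Itgb2 (0.10, 0.10 and 0.11). Over the 6 macrophage and monocyte libraries and 9745 genes, they were Ctsa, Lst1 and Ifi30 for Itgam (0.13, 0.14 and 0.14), Treml4, Slamf8 and Srgap3 for Itgax (0.19, 0.20 and 0.27) and Selplg, Stat6 and Stn1 for Itgb2 (0.06, 0.08 and 0.08). Selplg encodes the selectin ligand PSGL-1, another adhesion molecule of leukocytes. The libraries are few and share their scaling, so the order is a description.

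Of the other integrin subunit genes, 1 passed in dendritic cells and 9 passed between the populations. With PAM3CSK4, 1 of 9 tested subunits passed, where 5.12% of all genes tested were called. It was Itga8, a subunit that binds RGD motifs in matrix proteins. Itga8 fell to 2.31 ± 2.04 CPM in PAM3CSK4 libraries, against 8.91 ± 4.001 CPM in vehicle libraries (SD, n = 4 each, log2 change −1.69 ± 0.40, SE, limma adjusted p = 0.032). Itga3 (log2 change −0.94, limma adjusted p = 0.077), Itga9 (1.71, limma adjusted p = 0.085) and Itga1 (−1.28, limma adjusted p = 0.19) did not pass. In macrophages 7 of 12 tested subunits were higher and 2 lower than in monocytes, where 12.8% of all genes tested were higher and 7.42% lower. Itga2b, the platelet subunit alphaIIb, was at 68.8 ± 32.8 CPM in macrophages and 1.87 ± 0.721 CPM in monocytes (SD, n = 3 each, log2 change 4.49, limma adjusted p = 2.5e-05). Itgae, the CD103 subunit of mucosal T cells and cross-presenting dendritic cells, had a log2 change of 3.58 and the collagen receptor subunit gene Itga2 one of 2.71 (limma adjusted p = 5.3e-05 and 7.9e-05). Itga1, another collagen receptor subunit gene, fell to 15.7 ± 1.68 CPM in macrophages, against 105 ± 50.8 CPM in monocytes. Beside these values, the platelet marker list, which holds Itga2b, and the NK and T cell list (149 to 373 CPM in macrophages and 10.9 to 25.2 CPM in monocytes) were higher in every macrophage library, and their part was not tested.

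Of 20 genes that activate integrins or link them to actin, 0 passed in limma after PAM3CSK4, while 5 were higher and 1 was lower at an unadjusted p under 0.05. Among all 11377 genes tested, 2835 had an unadjusted limma p under 0.05 in either direction. Cyth1, a regulator of CD18 integrins, came nearest with a log2 change of −0.69 (limma adjusted p = 0.064), followed by Lims1 (0.78, limma adjusted p = 0.13), Fyb (0.98, limma adjusted p = 0.14) and Rap1b (0.75, limma adjusted p = 0.16). In macrophages 7 of the 20 were lower than in monocytes and 0 were higher, where 7.42% of all genes tested were lower and 12.8% higher, with a median log2 change of −0.51, against 0.10 over all genes. They included Fyb, an adaptor of integrin activation (log2 change −1.43), the filamin gene Flna (−1.65), the parvin gene Parvb (−1.33) and the vinculin gene Vcl (−0.91), with limma adjusted p of 0.0021, 0.0034, 0.0069 and 0.012.

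Of 14 genes that signal downstream of bound integrins, 2 rose after PAM3CSK4 and 0 fell, where 2.82% of all genes tested rose and 2.29% fell. Their median log2 change was 0.50, against 0.20 over all genes. Among them Fgr, which encodes a Src family kinase, was at 250 ± 105 CPM with PAM3CSK4 and 89.7 ± 22.5 CPM with vehicle (SD, n = 4 each, log2 change 1.38, limma adjusted p = 0.042). The neutrophil markers given above were highest in PAM3CSK4 replicate 4, and 2 of 14 tested ones rose and 0 fell, and their part in the level of Fgr was not tested. The adaptor gene Lcp2 (0.96, limma adjusted p = 0.11) and the exchange factor gene Vav1 (0.65, limma adjusted p = 0.15) did not pass. In macrophages 8 of the 14 were lower than in monocytes and 0 were higher (median log2 change −0.81), where 7.42% of all genes tested were lower and 12.8% higher. Among them the signalling adaptors Fcer1g and Tyrobp had log2 changes of −2.15 and −2.33, Fgr one of −2.81 and the kinase gene Lyn one of −1.36 (limma adjusted p = 9.2e-05, 0.00016, 0.00013 and 0.0016).

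Of 12 tested genes of integrin ligands, 2 rose and 1 fell after PAM3CSK4, where 2.82% of all genes tested rose and 2.29% fell. Fn1, which encodes fibronectin, a ligand of the receptor made of Itga4 and Itgb1 products, fell to 43.1 ± 52.9 CPM with PAM3CSK4, against 245 ± 23.0 CPM with vehicle (SD, n = 4 each, log2 change −3.16, limma adjusted p = 0.011). Fn1 is also among the 12 monocyte markers, of which 3 fell with PAM3CSK4, and the part of such cells in its level was not tested. F11r, which encodes the LFA-1 ligand JAM-A, and Cdh1, which encodes E-cadherin, a ligand of the CD103 integrin, rose by 1.61 and 1.46 on the log2 scale (limma adjusted p = 0.028 and 0.039), and Mfge8 did not pass (−0.68, limma adjusted p = 0.15). In macrophages 4 of 15 tested ligand genes were higher and 3 lower than in monocytes, where 12.8% of all genes tested were higher and 7.42% lower. Fn1 was lower (log2 change −4.91), and Vcam1, which encodes the VCAM-1 ligand of CD49d, was at 90.2 ± 25.4 CPM in macrophages and 19.2 ± 9.19 CPM in monocytes (SD, n = 3 each, log2 change 2.22, limma adjusted p = 0.00063). Icam4 and F11r had log2 changes of 1.70 and 1.92 (limma adjusted p = 0.0016 and 0.0045).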

How the data were processed

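Bulk RNA sequencing of ribosomal RNA-depleted libraries was deposited by the authors as 2 gene tables named FPKM. The deposited values were taken as CPM, because low values lay on whole multiples of 1 step (62.7% to 68.9% of low values in the dendritic cell table and 87.9% to 90.8% in the other, within 0.05 steps, and no more than 10.9% when the step was lengthened by 7%), with the same step for genes of short span (71.5% to 80.7% whole) and long span (54.1% to 60.2%) in the dendritic cell table. That is too few to recover counts for a count test. The submitters' processing notes name STAR 2.5.3a, Partek and the build mm10. For annotation and strand setting the sources used here name nothing, so overlapping and antisense genes cannot be told apart. The values of a library summed to 350368 to 578711 CPM.

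Groups came from the sample labels. Beside the macrophage and monocyte columns stood 3 columns with names that fit more than 1 sample and were not used, so dendritic cells were not tested against the other populations. Within each table, lmFit and trended eBayes of limma 3.58.1 (R 4.3.3) were run on log2(CPM + 1), for genes reaching 1 CPM in at least 4 or 3 libraries, and the code was tested on simulated data. Alternatives were a pseudocount of 0.1, no filter, 3 rescalings, a replicate block and each library left out. Text names the 10 members, up to 4 genes of each related list by unadjusted p, and the 3 genes most alike to Itgax, Itgam and Itgb2. Adgre1 was named after its value was seen. A further list gene that this rule names is not reported here. Members and lists were chosen with earlier results of these data known.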

Additional observations from a re-analysis of the deposited data

How the results depend on the processing

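The number of genes called after PAM3CSK4 was 582 as reported, 166 with no filter on low values, 976 with the replicate block, and 184 to 1008 with each library left out in turn. Of the integrins, 2 rose and 1 fell as reported. With no filter, 0 rose and 0 fell. After each of the 3 rescalings 2 fell, since Itga4 joined Itgb7. With each library left out in turn, 0 to 2 rose and 0 to 1 fell. Between macrophages and monocytes 2468 genes were called, and 1699 to 3364 with a library left out. There 1 integrin rose and 2 fell as reported, 0 rose with no filter and after median centring, and 0 to 1 rose and 1 to 3 fell with a library left out. Leaving out a library leaves fewer samples and dropping the filter puts more genes in the test, and the causes were otherwise not tested. The planned test of dendritic cells against macrophages and monocytes was not run.

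Signs turned only for members that did not pass. After PAM3CSK4 these were Itgal (log2 change −0.045, −0.12 and −0.079) and Itgb3 (−0.13, −0.21 and −0.20) when rescaled to a common total, with median centring and with quantile normalization. With each library left out in turn Itgax ranged from −1.02 to 0.088, Itgal from −0.056 to 0.30, Itgav from −0.26 to 0.30, Itgb1 from −0.21 to 0.26 and Itgb3 from −0.25 to 0.24. In macrophages Itga4 was at 0.074 after quantile normalization. Same-numbered libraries had correlations of −0.115 to 0.300 of their deviations from group means in dendritic cells, and different-numbered ones −0.378 to 0.196. In the other table the correlations were 0.0836 to 0.183 for the same number and −0.118 to 0.0186 for different numbers. In that table every same-numbered value was above every different-numbered one, while in dendritic cells the ranges overlapped. Whether the numbers pair the samples cannot be told from these values. With the number as a replicate block 2 integrins rose and 0 fell after PAM3CSK4, where Itgb7 had limma adjusted p = 0.054, and the counts for macrophages were as reported, with 2609 genes called.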
